A study of Arabidopsis thaliana with 4 samples.

Results

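In total, 181 probe sets had a lower signal on the array numbered 2 than on the array numbered 1 in seedlings of both genotypes of Arabidopsis thaliana. They were taken from 22746 probe sets of an Affymetrix array on which each probe set reads the transcripts of 1 gene or a few close relatives. A probe set was taken where both number-1 arrays had a scaled signal of at least 50 and each of them was at least 2 times as bright as both number-2 arrays. The scaled signal is the deposited signal divided by the median of its array and multiplied by 70. The rule was met by 188 probe sets, which is 0.827% of all and 1.54% of the 12203 with at least 50 on both number-1 arrays. MCCA, MCCB, GH3.3, IAA29, HAT2, XTH33 and GAT1_2.1 met it but are not described here, and IVD did not meet it (1113 and 785 on the number-2 arrays, against 1507 and 1736 on the number-1 arrays).

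Seedlings of the ecotype Col-0 were sampled at 10 days, after growth on Murashige-Skoog salts in long days at 23 °C, and total RNA of whole seedlings was measured. The arrays are 35S:miR396 number 2, wild type number 2, 35S:miR396 number 1 and wild type number 1b, so each genotype has 2 arrays. The 35S:miR396 plants overexpress the microRNA miR396 from the 35S promoter, which is active in most plant tissues and is not restricted to 1 cell type, and the number of independent lines was not given in the sources used here. The labels do not say what the numbers stand for (plants, cultures, days or hybridisations) or that 1 and 1b belong together, so any p-value below reflects array-to-array spread that could be purely technical. In whole seedlings, fewer cells of a type and less RNA per cell cannot be told apart.

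Seedlings draw on light-made sugar by day and on reserves at night. When sugar runs short, the kinase complex SnRK1 turns on a starvation programme in which proteins, branched-chain amino acids and lipids are broken down as fuel and growth is held back. Cell elongation in seedlings, in turn, rests on enzymes that loosen and rebuild the wall. These pathways are background for the groups below, and the members were not chosen by them.

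Of the 181 probe sets, 77 have 1 gene in the platform annotation (76 distinct genes), 5 have several and 99 have none. A single gene was thus matched for 42.5% of the 181, against 59.1% of all 22746 probe sets. Of the 77, 13 carry a symbol of their own and 64 only a locus tag, so most of the set cannot be described by function here. A role known from general knowledge was assigned to 41 of the 77, in 9 groups that were drawn up after the members were known. Group counts below cover these assigned genes only, and other members may belong to the same families. All values of the number contrast are a description, because that contrast chose the members, and none of them was tested.

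The median signal of the 181 probe sets was 195 on 35S:miR396 2 and 191 on wild type 2, against 528 on 35S:miR396 1 and 523 on wild type 1b. In 35S:miR396 the signal was 2.01-fold to 19.0-fold lower on number 2 than on number 1, with a median of 2.67-fold. In wild type it was 2.00-fold to 19.1-fold lower, with a median of 2.80-fold. The smallest of the 4 possible ratios for a probe set (dimmer number-1 array over brighter number-2 array) had a median of 2.41, and it was at least 3 in 37 probe sets, at least 4 in 20 and at least 5 in 5.

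**Figure D1:**
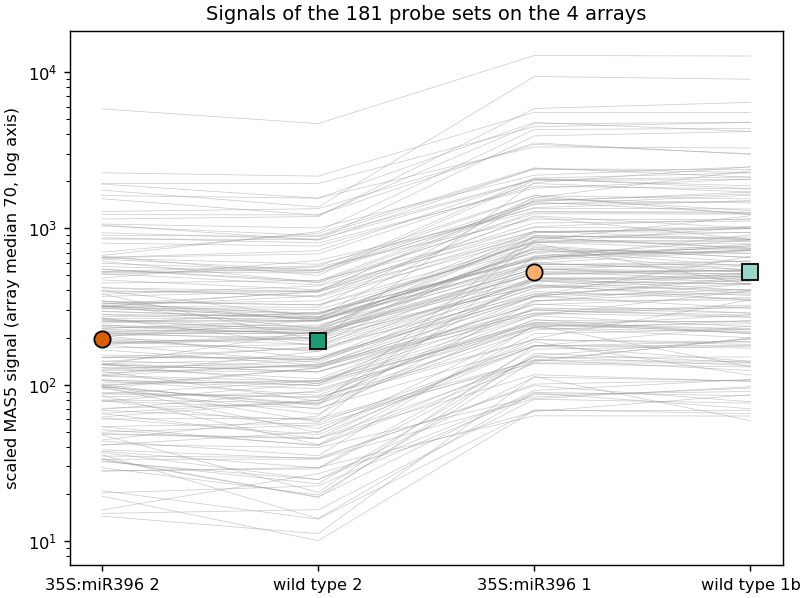
Scaled MAS5 signal (log axis, array median set to 70) of the 181 probe sets on each array, with 1 grey line per probe set and the large symbols at the median of each array. The medians are 195 and 191 on the number-2 arrays and 528 and 523 on the number-1 arrays, and every line is higher on both number-1 arrays because the rule required it.

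The widest gap belonged to a probe set for which the annotation used here gives no gene. Its signal was 44.2 on 35S:miR396 2 and 63.0 on wild type 2, against 838 on 35S:miR396 1 and 1204 on wild type 1b. The dimmer number-1 array was thus 13.3 times as bright as the brighter number-2 array. Among probe sets with 1 gene the widest gap was that of AT5G62280, at 96.8 and 73.5 on the number-2 arrays of 35S:miR396 and wild type, against 899.9 and 851 on their number-1 arrays. AT4G37220, of the WCOR413 family of cold acclimation proteins, came next, at 98.6 and 57.5 against 661 and 844. The genotypes of AT4G37220 stood apart in opposite directions, with 35S:miR396 the brighter within number 2 and wild type the brighter within number 1.

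At the edge of the rule the members grade into other probe sets. Of the 181, 31 had a smallest ratio under 2.1, and 34 other probe sets with the same minimum signal had one between 1.9 and 2. Just inside stood AT3G50650, AT1G09575, AT3G61260, BZIP61 and bHLH121, with smallest ratios from 2.01 to 2.03. Just outside stood AT1G68440, AT4G28085, AT5G57655, AT5G18630 and AT5G58090, with smallest ratios from 1.98 to 2.00.

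Genes of fuel breakdown and of the SnRK1 complex made up the first role group, with 4 members. AKINBETA1, a regulatory beta subunit of SnRK1, had signals of 854 on 35S:miR396 2 and 848 on wild type 2, against 2041 on 35S:miR396 1 and 2133 on wild type 1b. The genotypes were nearly level within each number, and the log2 ratio of number 2 over number 1 was -1.26 in 35S:miR396 and -1.33 in wild type. ETFQO hands electrons from the oxidation of branched-chain amino acids to the mitochondrial respiratory chain. It stood at 254 and 224 on the number-2 arrays of 35S:miR396 and wild type, against 644 and 792 on the number-1 arrays. SDP1, the triacylglycerol lipase that starts the use of stored oil in seedlings, was at 467 and 404 against 1083 and 1112. AT1G18460, of a lipase family, was at 306 and 283 against 816 and 794. Over the 4 genes the signal was 2.32-fold to 2.67-fold lower on number 2 in 35S:miR396 and 2.52-fold to 3.53-fold lower in wild type.

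Further genes of these pathways were read from lists drawn up with earlier results of these data known. Of 33 genes induced by darkness or sugar starvation, 5 had a probe set of 1 gene, and 2 of these, AKINBETA1 and ATL8, met the rule while 0 met its mirror image (both number-2 arrays at least 50 and at least 2 times as bright as both number-1 arrays). Over all probe sets 0.827% met the rule and 235 (1.03%) its mirror image, and with 5 genes on a list made with results known nothing is read from the count. ATL8 encodes a RING-type ubiquitin ligase of the ATL family. It was at 96.5 and 49.3 on the number-2 arrays of 35S:miR396 and wild type, against 236 and 245 on the number-1 arrays, so that wild type 2 was the dimmest array. The other 3 were AT4G27450 at 1479.6 and 1132 against 2210.3 and 2619, AT3G15450 at 6841 and 6943 against 10116 and 9783, and AT5G09300, a subunit of the branched-chain keto acid dehydrogenase, at 29.8 and 67.8 against 30.8 and 41.1. AT4G27450 and AT3G15450 were dimmer on both number-2 arrays without reaching the rule, and AT5G09300 was not. The median log2 ratio of number 2 over number 1 over the 5 genes was -0.89, against -0.04 over all probe sets. Nothing is read from this median either, since the rule required low ratios of AKINBETA1 and ATL8. Listed genes without a probe set of 1 gene may be read by probe sets that are unnamed here, also among the members.

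Genes of amino acid breakdown were read from a list that leaves out the leucine breakdown genes MCCA, MCCB and IVD. Those 3 were lower on both number-2 arrays, and MCCA and MCCB met the rule. MCCA was at 916 and 650 on the number-2 arrays of 35S:miR396 and wild type, against 3284 and 3637 on the number-1 arrays, and MCCB at 730 and 523 against 1900 and 1896. Of the 15 listed, 7 had a probe set of 1 gene, and ETFQO was the 1 of these that met the rule. The rest of the list may be read by probe sets without a gene in the annotation, and 99 of the 181 members are of that kind. Its partners ETFALPHA and ETFBETA, the subunits of the flavoprotein that delivers electrons to ETFQO, were at 198 and 218 against 179.9 and 189.8 and at 278 and 272 against 313 and 318, with 35S:miR396 first in each pair and number 2 before number 1. AT4G33150, the enzyme that starts lysine breakdown, was at 265 and 210.4 against 365 and 429, 2.04-fold lower on number 2 in wild type and 1.38-fold lower in 35S:miR396. The median log2 ratio over the 7 was -0.15, and it does not describe the genes of the list that are unnamed here.

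**Figure D2:**
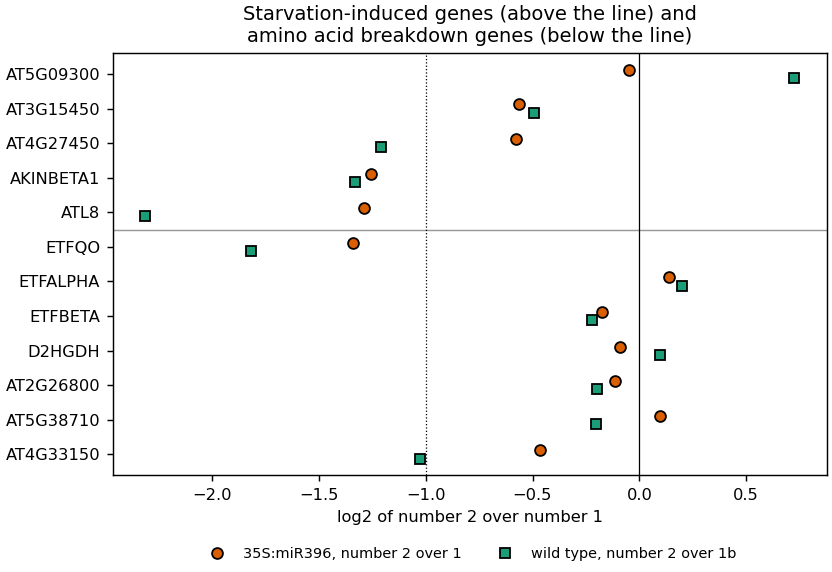
Log2 ratio of the number-2 over the number-1 array, with circles for 35S:miR396 and squares for wild type. Shown are the 5 starvation-induced genes (above the line) and the 7 amino acid breakdown genes (below it) with a probe set of 1 gene. AKINBETA1, ATL8 and ETFQO lie left of the dotted line at -1 in both genotypes, AT4G27450 and AT4G33150 in wild type alone, and the remaining 7 in neither.

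Cell wall genes formed a group of 4 members. EXLA2, an expansin-like protein, was at 107 and 98.9 on the number-2 arrays of 35S:miR396 and wild type, against 462 and 385 on the number-1 arrays. XTH16, an enzyme that cuts and rejoins xyloglucan chains, was at 264 and 265 against 654 and 721. AT4G25260, of the family of invertase and pectin methylesterase inhibitors, was at 181 and 197 against 430.4 and 403, and AT5G04310, of the pectate lyase family, at 27.9 and 29.5 against 63.1 and 62.9. In these 4 the genotypes were close within number 2, and the gap was widest for EXLA2, with log2 ratios of -2.11 in 35S:miR396 and -1.96 in wild type.

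Transcription regulators numbered 6. AT2G28200, a C2H2 zinc finger protein, was at 53.6 and 40.5 on the number-2 arrays against 136 and 129.5 on the number-1 arrays, and AT1G69570, a DOF zinc finger protein, at 65.2 and 45.2 against 140.3 and 199. ULT1, a trithorax-type regulator that limits the size of shoot and floral meristems, was at 87.0 and 106 against 249 and 227. BZIP61, a basic leucine zipper protein, was at 203 and 258 against 604 and 523, and bHLH121, a regulator of iron homeostasis, at 416 and 393 against 897 and 846. AT3G50650, of the GRAS family, was at 68.4 and 59.1 against 137 and 137. Within number 2, ULT1 and BZIP61 were dimmer in 35S:miR396 and the other 4 were dimmer in wild type.

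Ubiquitin ligase components and proteases numbered 5 with ATL8. AT3G19390, of the cysteine protease family, was at 32.5 and 23.2 on the number-2 arrays against 153 and 195 on the number-1 arrays, and AT5G19110, of the aspartyl protease family, at 20.9 and 13.7 against 69.0 and 65.2. The F-box proteins AT5G27920 and AT5G43190 were at 106 and 85.3 against 278 and 399.8 and at 239.6 and 221 against 505.5 and 545. All 5 were dimmer on wild type 2 than on 35S:miR396 2. The 181 leaned the same way, with a median log2 ratio of 35S:miR396 over wild type on number 2 of 0.08. The group was drawn up after the members were known, so nothing about these families is read from the 5. Their log2 ratios of number 2 over number 1 ran from -2.24 to -1.08 in 35S:miR396 and from -3.08 to -1.30 in wild type.

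Transporters numbered 4. AT5G18840, of the sugar transporter family, was at 33.2 and 18.9 on the number-2 arrays of 35S:miR396 and wild type, against 159 and 138 on the number-1 arrays. The MATE-type efflux carriers AT5G44050 and AT3G23550 were at 62.1 and 78.9 against 193 and 187 and at 481 and 623 against 1283 and 1269.6. AT1G09575, of the family of mitochondrial calcium uniporters, was at 41.4 and 39.5 against 83.3 and 94.8. Both MATE carriers were dimmer on 35S:miR396 2 than on wild type 2, and the sugar transporter was the reverse.

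Signalling and membrane proteins numbered 7. The protein kinases AT2G31010 and AT4G01330 were at 49.5 and 55.1 against 144 and 123 and at 446 and 464 against 1011 and 1002. AT3G61260, a remorin, was at 1621 and 1559.9 against 3315 and 3267. TET10, a tetraspanin, was at 235 and 211 against 549.8 and 486. PATROL1 (AT5G06970), which helps to place the proton pump in the plasma membrane of guard cells, was at 214 and 213 against 528 and 469. AT4G29950, a Rab GTPase-activating protein, and AT2G25430, an ANTH-domain protein of membrane traffic, were at 514 and 434 against 1272 and 1249 and at 378 and 427 against 953 and 942. Over the 5 membrane proteins the signal was 2.05-fold to 2.52-fold lower on number 2 in 35S:miR396 and 2.09-fold to 2.88-fold lower in wild type.

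Genes of defence and specialised metabolism numbered 5. NAI2, a protein needed to form ER bodies, which store myrosinase-type glucosidases, was at 218 and 235 on the number-2 arrays of 35S:miR396 and wild type, against 734 and 568 on the number-1 arrays. UGT85A4, a glucosyltransferase, was at 89.1 and 82.2 against 230.4 and 199. AT5G05600, of the 2-oxoglutarate-dependent oxygenases, was at 331 and 281 against 823 and 833. AT4G19530, a TIR-NBS-LRR immune receptor, and AT1G33790, a jacalin-type lectin, were at 597 and 537 against 1472 and 1251 and at 19.3 and 10.0 against 68.3 and 68.4. On wild type 2 the lectin had the lowest signal of any of the 181 probe sets on that array.

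The last 6 with a role belong to other families. AT3G62950, a glutaredoxin, was at 316 and 312 on the number-2 arrays against 1578 and 1297 on the number-1 arrays. AT1G30820, a CTP synthase, was at 271 and 283 against 639 and 907, and AT1G04430, of a methyltransferase family, at 1035 and 898 against 2400.2 and 2278. AT2G14900, of the gibberellin-regulated GASA family, was at 79.2 and 52.4 against 177 and 178, and AT5G14450, a GDSL hydrolase, at 148 and 150.4 against 368 and 309. AT4G37220, given above, completes the group. Families could hardly be counted by symbol, since 64 of the 77 have only a locus tag.

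**Figure D3:**
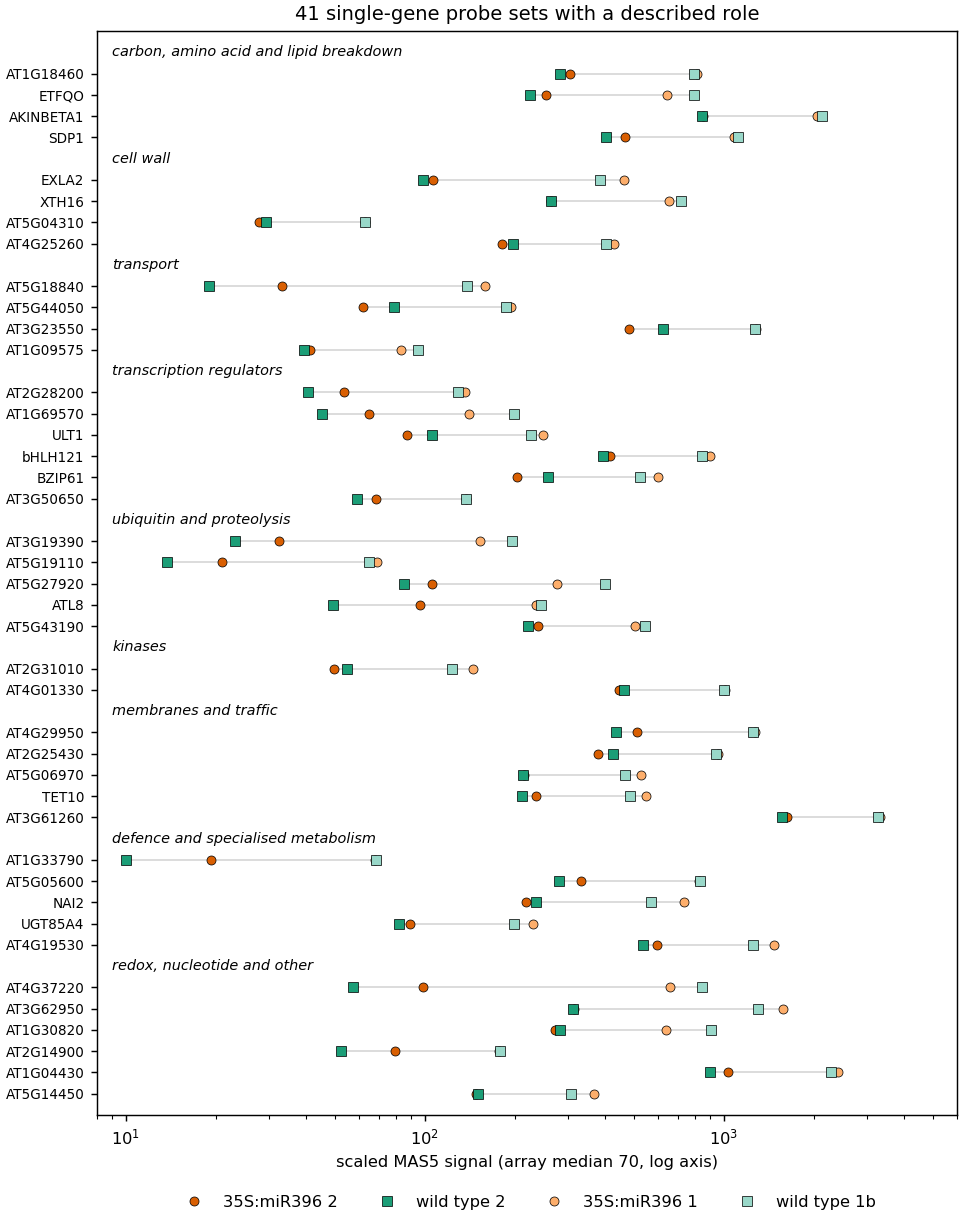
Scaled MAS5 signal (log axis) on each of the 4 arrays for the 41 probe sets of genes with a described role, in 9 groups, with 35S:miR396 as circles, wild type as squares and number 2 in the darker shade. In each row both dark symbols lie left of both light ones, as the rule required, and a symbol that is missing lies under another.

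Genes without a role given here included some of the widest gaps. AT1G62480 was at 937 and 851 on the number-2 arrays of 35S:miR396 and wild type, against 3905 and 4162 on the number-1 arrays, AT5G26740 at 391 and 398 against 1487 and 1708, and AT2G23690 at 15.0 and 15.8 against 80.5 and 76.1. AT5G01740 was at 79.9 and 76.4 against 344 and 393, AT5G24580 at 20.2 and 22.5 against 86.3 and 90.3, and AT3G50560 at 65.4 and 79.5 against 309.5 and 286. Within number 2 the log2 ratio of 35S:miR396 over wild type lay between -0.28 (AT3G50560) and 0.14 (AT1G62480) in these 6. Among the brightest members without a role, AT5G40450 was at 651 and 718 against 2085 and 1795, AT3G60320 at 804 and 769 against 1859 and 1787, AT1G54740 at 523 and 519 against 1422 and 1626, and AT5G56100 at 645 and 589 against 1343 and 1331. AT1G22330 was read by 2 probe sets, at 69.3 and 91.2 against 258 and 251 on the first and at 99.96 and 106 against 301 and 271 on the other, so both gave a gap of the same direction. Probe sets of the types that can read several transcripts of a family were 6 of the 181, or 3.31%, against 3.52% of the 12203.

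The genotypes can also be set side by side with the fold required in 1 genotype at a time. These counts are a description, because they keep the rule's demand for a signal of at least 50 on both number-1 arrays and use the same 4 arrays. Of the 12203 probe sets, 352 (2.88%) were at least 2 times lower on 35S:miR396 2 than on 35S:miR396 1, and 359 (2.94%) were at least 2 times lower on wild type 2 than on wild type 1b. The 2 lists shared 212, which is 60.2% of the 35S:miR396 list and 59.1% of the wild-type list. Of the 35S:miR396 list, 99.1% were also below 0 in wild type, where 54.7% of the 12203 were. Of the wild-type list, 97.8% were also below 0 in 35S:miR396, where 58.5% of the 12203 were. Only 1 probe set of the 35S:miR396 list was at least 2 times higher on number 2 in wild type, and 0 of the wild-type list were so in 35S:miR396. Across the 12203 the log2 ratios of the genotypes had a correlation of 0.77 (Pearson's r). This is across probe sets, which share their 4 arrays and are not independent replicates.

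**Figure D4:**
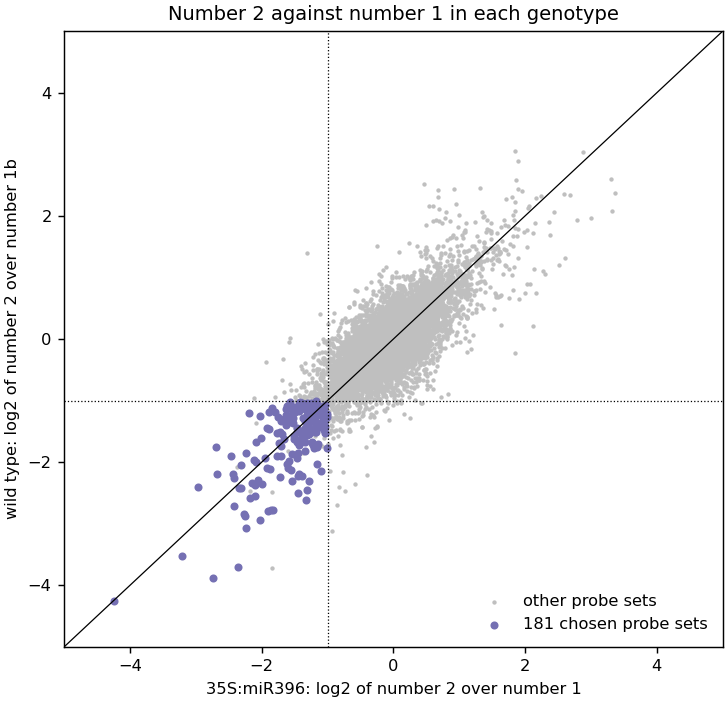
Log2 ratio of number 2 over number 1 in 35S:miR396 (x axis) and of number 2 over number 1b in wild type (y axis) for probe sets with a signal of at least 50 on both number-1 arrays, with the 181 described here in purple, the diagonal of equal ratios, and dotted lines at -1. The purple points lie left of and below the dotted lines because the rule required it, and the remaining points spread along the diagonal (r of 0.77 over all 12203).

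The log2 ratio in 35S:miR396 minus that in wild type had a median of 0.11 over the 181, against -0.04 over the 12203. Its standard deviation across probe sets was 0.42, against 0.34. The counts in this paragraph were not made over the 12203, so nothing about the set is read from them. Within the 181, the folds of the genotypes differed by under 1.5 times for 155 probe sets. Of the 26 that differed by at least 1.5 times, 20 had the larger fold in wild type and 6 in 35S:miR396. All 7 that differed by at least 2 times had the larger fold in wild type. They were AT2G25780, AT4G37220, AT1G09460, AT1G69570, ATL8 and 2 probe sets with no gene. AT2G25780 was at 35.6 and 13.8 on the number-2 arrays of 35S:miR396 and wild type, against 89.1 and 84.8 on the number-1 arrays. AT1G09460 was at 33.6 and 19.0 against 91.6 and 108. With 1 array for each genotype and number, the difference between the folds could not be tested.

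The rule did not choose on the contrast of genotypes, 35S:miR396 over wild type, but it was not blind to it. It also set each number-1 array against the number-2 array of the other genotype. A genotype gap in both numbers can therefore keep a probe set out. Of the 12203, 212 were at least 2 times lower on number 2 within both genotypes, and 188 met the rule. Counts of genotype differences over the members are thus partly limited by the rule. In limma's test (Benjamini-Hochberg adjustment, threshold 0.05), 0 of the 181 probe sets passed, and 0 of all 15922 tested did (0%). At an unadjusted p under 0.05 there were 0 of the 181 and 103 of the 15922 (0.647%). All 181 passed the filter on low signals, as their number-1 signals are high. The test had no term for the number, so the gap that defines the members counts as error. On the log2 scale, 95% intervals of the genotype fold change reached 1.80 to either side for the members and 0.63 over all tested (medians), and the count of 0 is therefore no sign that the genotypes are alike. With 1 and 1b taken as the same number and the number as a block, 0 of the 181 and 18 of the 15922 (0.113%) passed limma's test. In that fit an unadjusted p under 0.05 was reached by 18 of the 181 and by 902 of the 15922 (5.67%). The median log2 fold change of 35S:miR396 over wild type was 0.06 over the members and 0.00 (-0.0035) over all tested.

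Within each number the genotypes can be read without that gap, as values from 1 array against 1. On the arrays of number 2, 13 of the 181 (7.18%) were at least 1.5 times higher in 35S:miR396 and 2 at least 1.5 times lower, where 1.52% and 1.31% of the 12203 were. On the arrays of number 1 the counts were 4 (2.21%) and 2, where 1.41% and 1.19% of the 12203 were. The median log2 ratio over the members was 0.08 on number 2, against -0.02 over the 12203, and 0.01 on number 1, against 0.01. Of the 13, 11 had a signal under 100 on wild type 2, which is also the denominator of this ratio. None of the 181 was at least 1.5 times apart in 1 direction in both numbers, where 3 of the 12203 (0.0246%) were so as higher and 13 (0.107%) as lower. The rule, which also compared arrays across genotypes, works against such probe sets among the members.

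**Figure D5:**
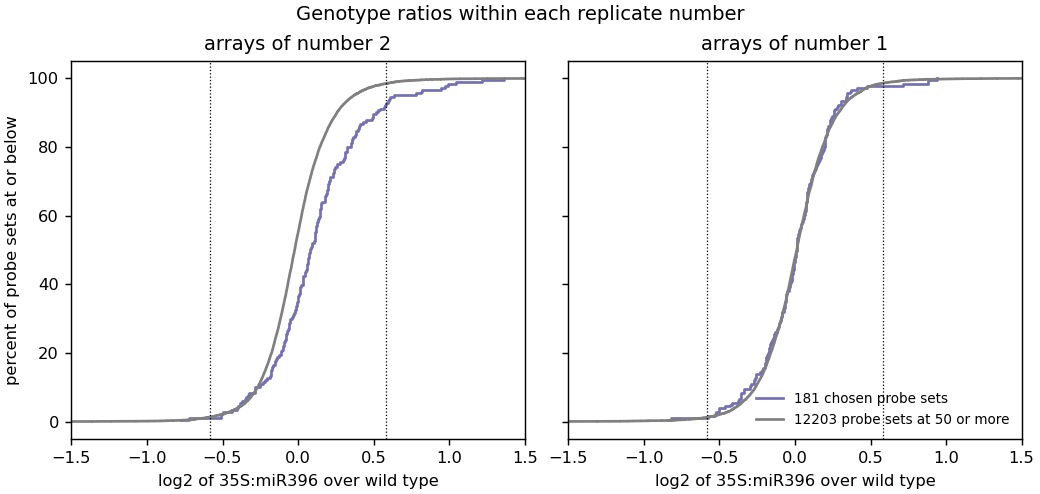
Percent of probe sets at or below each log2 ratio of 35S:miR396 over wild type, on the arrays of number 2 (left) and of number 1 (right), for the 181 probe sets (purple) and the 12203 with at least 50 on both number-1 arrays (grey), with dotted lines at a ratio of 1.5 times in either direction. On number 2 the purple line lies right of the grey one over most of its course (medians 0.08 and -0.02), on number 1 the lines nearly coincide (medians 0.01 each), and 7 of the 12203 lie outside the axis in each panel.

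Genes at the ends of the genotype contrast did not pass the test. With 35S:miR396 brighter on average stood AT2G25780, AT5G18840, AT1G33790, ATL8 and AT5G19110, with log2 fold changes of 0.72, 0.50, 0.47, 0.46 and 0.34. In each of these 5 the difference lay mainly on number 2, where the log2 ratios ran from 0.61 to 1.36, while on number 1 they ran from -0.06 to 0.20. With 35S:miR396 dimmer stood AT3G45730, AT1G30820, AT3G23550, AT1G22330 and AT5G44050, with log2 fold changes of -0.43, -0.28, -0.18, -0.18 and -0.15. The other probe set of AT1G22330 gave 0.03, so that gene has no settled direction. AT3G45730 was dimmer in 35S:miR396 in both numbers, at 94.5 against 128 on number 2 and 367 against 489.8 on number 1.

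Values that could move with the number were read on the same arrays. The ratio of the 3 prime over the 5 prime actin probe set, which climbs when RNA is degraded, was 2.00 on 35S:miR396 2 and 1.76 on wild type 2, against 2.03 and 2.07 on the number-1 arrays of 35S:miR396 and wild type. That of ubiquitin was 1.33 and 1.27 against 1.37 and 1.41, and that of GAPDH was 1.05 and 0.971 against 0.889 and 0.969. The scaled signal of the 25S ribosomal RNA control was 64.1 and 72.1 against 84.3 and 185, highest on wild type 1b. Of the leaf photosynthesis markers 5 of 9 had a probe set of 1 gene, with summed signals of 46315 and 50117 against 56249 and 53384. Of the root markers 2 of 8 had one, with sums of 1306 and 1178 against 1389 and 1285, nearly all of it from PYK10. None of these 7 markers met the rule in either direction, and none was listed at 0. The part of any of these values in the members' gap was not tested.

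The number of members rests on the scaling of the arrays. On the deposited signals, where 35S:miR396 2 was the brightest array and 35S:miR396 1 the dimmest (medians 81.3 and 60.5), 85 probe sets met the rule, of which 84 are among the 181. The median log2 ratio of number 2 over number 1 over all probe sets is 0.15 on that scale, against -0.04 on the scaled one.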

How the data were processed

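Whole seedlings of 2 genotypes were measured on 4 arrays. The authors deposited 1 linear intensity (the MAS5 signal) for each probe set. MAS5 is named in the submitters' processing notes, with version and scaling target not given in the sources used here. The table has 22810 probe sets, of which 64 controls were dropped, and 6 values at or under 0 were set to 0.1. Each array was divided by its median and multiplied by 70. The number of arrays limits the precision, and no detection calls were used here.

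Gene names came from the platform annotation and RefSeq (TAIR10.1), which matched 13436 probe sets to 1 locus, and probe sets with several genes or none are unnamed. Genotypes came from sample titles. They were compared with limma 3.58.1 (R 4.3.3, eBayes with trend, two-sided) on log2 values, with the lowest 30% of mean signal left out and no block. An exact permutation test of 2 against 2 arrays cannot go below 0.333. Scripts were tested on simulated data.

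The members and lists were chosen with earlier results of these data known. Named by rule were single-gene members: those on the lists, the 12 brightest on number 1, the 12 with the widest gap, the 5 nearest the threshold on each side and the 5 at each end of the genotype contrast. The other genes were named, by role or for their values, after their values were seen. Promoter motifs were not analysed here. Python 3.11.15, pandas 2.3.3, numpy 2.4.6 and matplotlib 3.10.9 were used. Alternatives were other scalings, thresholds, filters, pseudocounts, a block and arrays left out. Of the remaining 13 lists, leaf and root markers are given as values that could move with the number. The others are not described. All 15 lists held 188 genes, of which 3 were among the members. Many of the 188 had no probe set of 1 gene. In the lists of the morning clock, nitrate assimilation and brassinosteroid synthesis, 0 genes had a probe set of 1 gene. The array may still read such genes, through probe sets that are unnamed here. The 3 are therefore no share of genes that could be called, and over all probe sets 0.827% met the rule.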

Additional observations from a re-analysis of the deposited data

How the results depend on the processing

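The 181 probe sets became 85 on deposited signals, 596 at a fold threshold of 1.5, 37 at a threshold of 3 and 546 with no minimum signal. They became 164 after quantile normalization (all among the 181), 168 with a minimum signal of 100, 162 with a pseudocount of 10, 175 without probe sets that can read several transcripts, and 241 to 266 with 1 array left out, since fewer pairs must then pass. In the test of the genotypes 0 probe sets passed in all alternatives but one. With the replicate block (1 and 1b taken as 1 number) 18 of 15922 (0.113%) passed, 0 of them among the 181, where the lowest adjusted p was 0.254. In that fit 18 of the 181 had an unadjusted p under 0.05, 11 of them higher in 35S:miR396, where 902 of the 15922 (5.67%) did. The labels do not state that the number pairs the arrays, and the correlation of same-numbered arrays' deviations from their group means was 0.627 over 15922 probe sets. The members' median log2 fold change of 35S:miR396 over wild type was 0.02 to 0.07 under other scalings, the pseudocount and the replicate block. With 1 array left out it ran from -0.70 to 0.78 (-0.697 without wild type 2, -0.647 without 35S:miR396 1, 0.765 without 35S:miR396 2 and 0.779 without wild type 1b), because a genotype then keeps a single number. Of 68 alternative values of the number ratio of 34 named probe sets, 22 moved by more than the spread between the genotypes. Their sign could not turn, since the members were chosen at a ratio of at least 2.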
